A study of Mus musculus with 11 samples.

Results

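The 10 genes described here encode peptide hormones of colonic enteroendocrine cells and the proteins that make or specify them: Gcg, Insl5, Pyy, Nts, Cck, Sst, Pcsk1, Scg2, Neurod1 and Neurog3. They were taken by gene symbol from the 43346 genes of a count table of mouse colon RNA, and each matched 1 row. The group was proposed with the difference between the mouse groups already known, so the values that compare the groups, and whether a gene passed the threshold used for all genes, are given for these 10 genes as a description and not as evidence of a difference.

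Enteroendocrine cells are scattered hormone-secreting cells of the gut epithelium that sense nutrients and microbial products at the lumen and release peptides into blood and onto nearby nerves. L cells make the proglucagon-derived peptides, including GLP-1 and GLP-2, together with peptide YY, and in the colon many of them also make insulin-like peptide 5. I cells are defined by cholecystokinin and D cells by somatostatin, while neurotensin is shared between L cells and the related N cells. Neurog3 commits progenitors to the lineage, Neurod1 acts in its differentiating cells, and the hormones are stored in granules, cut by convertases such as that of Pcsk1 and packed with granins such as secretogranin II, the product of Scg2.

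RNA was sequenced from the colon of male Swiss Webster mice at 8 to 10 weeks of age. The control group was 5 germ-free (GF) mice, raised without microbes. The other group was 6 humanized mice. These were GF mice that were colonized at 4 to 5 weeks of age with a human stool suspension (300 µL by gavage, 1 donor) and were studied 4 to 5 weeks later. All humanized mice thus carry the microbiota of a single donor, and RNA came from colon tissue, not from sorted cells. Each mouse is 1 library.

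Counted reads ranged from 49097005 to 64148538 in GF mice and from 39125290 to 54219854 in humanized mice. A gene's level is given as RPKM, which divides its reads by the deposited gene length and by the reads of the library, after TMM normalization. LFC is the log2 fold change of humanized over GF mice, with a standard error (SE). A gene was called where edgeR's exact test gave a Benjamini-Hochberg adjusted p (FDR) below 0.01 over the 19863 genes that passed a filter on low counts. Humanized mice 5 and 6 were singled out after the data were seen. Humanized mouse 6 had the highest summed RPKM of smooth muscle markers in its group, and humanized mouse 5 had the lowest sum of enteric neuron markers. Values without them are given for several results that they move. A check of gaps within groups, given at the end, flagged values of humanized mouse 6, GF mouse 4 and GF mouse 2, and none of humanized mouse 5.

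The bases before the transcription starts of the hormone genes are shown for the 3 hormone genes of the group with the E-box form CATCTG there, and for Pyy, which has no CATCTG. E boxes are bound by Neurod1 and Neurog3 among many factors. The sequences are from RefSeq on GRCm38.p6, 5′ to 3′ on the strand of the gene, and capitals mark CATCTG on either strand (CAGATG on the strand shown). The Gcg sequence is chr2:62483654-62483903, that of Insl5 chr4:103026843-103026978, that of Cck chr9:121495695-121495944 and that of Pyy chr11:102107833-102108082, all on the minus strand.
Gcg: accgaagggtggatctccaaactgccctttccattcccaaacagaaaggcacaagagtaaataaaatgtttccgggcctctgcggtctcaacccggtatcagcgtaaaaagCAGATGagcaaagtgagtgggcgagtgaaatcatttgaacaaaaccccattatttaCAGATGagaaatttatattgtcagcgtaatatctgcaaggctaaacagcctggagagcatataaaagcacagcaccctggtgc
Insl5: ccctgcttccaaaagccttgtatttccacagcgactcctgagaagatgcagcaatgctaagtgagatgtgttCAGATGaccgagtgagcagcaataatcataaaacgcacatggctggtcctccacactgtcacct
Cck: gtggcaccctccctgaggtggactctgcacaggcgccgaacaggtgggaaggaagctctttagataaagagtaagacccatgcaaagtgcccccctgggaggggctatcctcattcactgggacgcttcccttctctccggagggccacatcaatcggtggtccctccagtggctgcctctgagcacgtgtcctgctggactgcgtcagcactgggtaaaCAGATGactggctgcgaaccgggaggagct
Pyy: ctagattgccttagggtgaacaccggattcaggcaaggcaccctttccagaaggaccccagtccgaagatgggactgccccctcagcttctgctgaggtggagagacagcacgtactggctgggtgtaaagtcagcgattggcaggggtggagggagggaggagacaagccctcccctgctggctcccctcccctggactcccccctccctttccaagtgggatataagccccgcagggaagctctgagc

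All 10 genes matched the promoter table, in which a window holds 250 bases before and 50 bases after a start, and Insl5 and Pyy have 2 windows each. CATCTG was found 139 and 83 bases before the start of Gcg, 30 bases before that of Cck and 178 bases before the nearer start of Insl5. The Insl5 stretch shown stops 114 bases short of that start, where the gene begins in the GENCODE M21 annotation. Of 32851 windows in the table, 17.2% hold CATCTG on either strand, and the looser E box CANNTG, of which CATCTG is a case, is in 72.3%. Both windows of Pyy hold a CANNTG, and of the 10 genes only Pcsk1 has none. The other Insl5 window, both windows of Pyy and those of Nts, Sst, Neurod1, Neurog3, Pcsk1 and Scg2 hold no CATCTG. The cyclic AMP response element TGACGTCA, present in 1.79% of all windows, is in those of Sst, Pcsk1 and Scg2, 48, 78 and 68 bases before the start. These sites are shown in capitals with 10 bases on each side, on the strand of each gene, at chr16:23890875-23890902 for Sst, chr13:75089769-75089796 for Pcsk1 and chr1:79440077-79440104 for Scg2.
Sst: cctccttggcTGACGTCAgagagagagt
Pcsk1: caggtagatcTGACGTCAagagatggct
Scg2: gctgagccggTGACGTCAgcgtggaatg
A match is a description of letters. The Scg2 site lies inside the gene as counted, which reaches chr1:79440120, and is before the start only in RefSeq. Of the 3 genes with this element, Sst and Scg2 were called lower and Pcsk1 was not called.

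All 10 genes passed the filter on low counts. Of them, Cck, Insl5, Gcg, Sst and Scg2 were called lower in humanized mice, none was called higher, and Pyy, Nts, Pcsk1, Neurod1 and Neurog3 were not called. Over all tested genes 19.3% were called, 10.1% as lower and 9.20% as higher. The median LFC of the 10 genes was -0.99, against 0.008 for all tested genes. The ranges of the groups did not overlap for 4 of the 10, while 18.4% of all tested genes had no overlap. Since the genes were chosen with this contrast known, nothing is read from these counts. In bulk tissue, fewer cells of a type and less RNA per cell cannot be told apart.

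**Figure D1:**
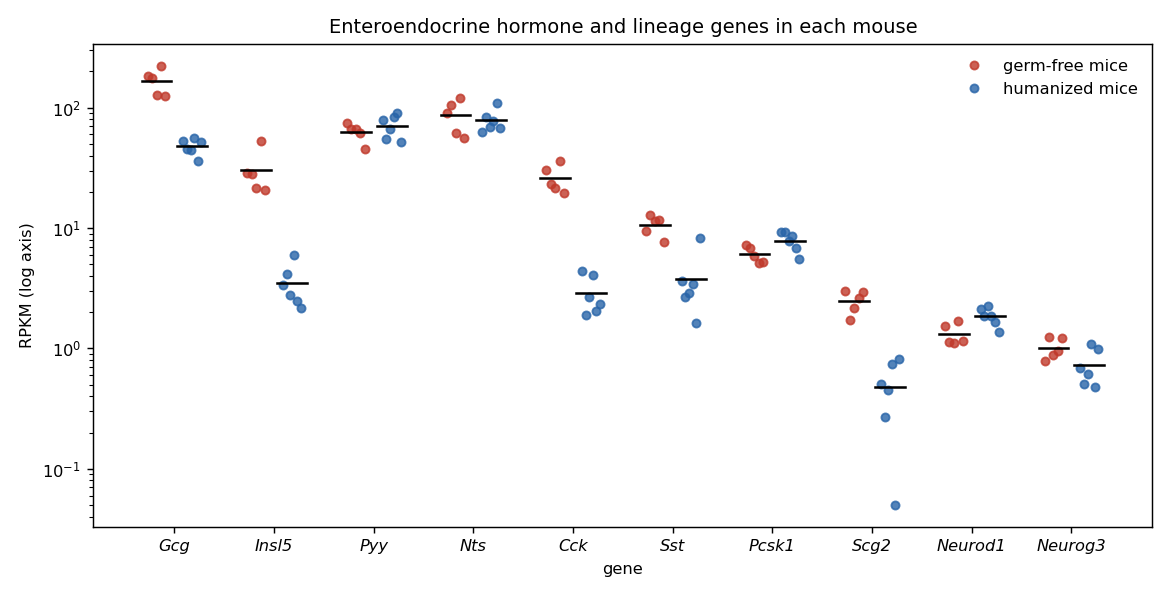
RPKM of each of the 10 genes (log axis) in 5 GF and 6 humanized mice, with 1 point per mouse and a bar at the group mean. Cck, Insl5, Gcg and Scg2 separate the groups, Sst does so except for humanized mouse 6 at 8.30, and the other 5 genes overlap.

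Gcg, which encodes proglucagon, was the most abundant of the 10 genes in GF mice and the third in humanized mice. The gene lies at chr2:62474530-62483650 (mm10). Its RPKM was 183, 177, 127, 222 and 124 in GF mice 1 to 5 and 52.4, 45.6, 44.6, 55.5, 36.3 and 51.5 in humanized mice 1 to 6. Every GF mouse was thus above every humanized mouse. The means were 166 ± 41.2 (SD, n = 5) and 47.6 ± 6.95 (SD, n = 6), with 11118 to 20673 reads per GF mouse and 2532 to 3858 per humanized mouse. The LFC was -1.81 (SE 0.16), so that the GF mean was 3.49 times the humanized mean.

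Insl5, the gene of insulin-like peptide 5, a relaxin family hormone of colonic L cells, lies at chr4:103017872-103026842. It had 28.7, 28.1, 21.6, 52.6 and 20.5 RPKM in GF mice 1 to 5. In humanized mice 1 to 6 it had 3.39, 4.17, 2.77, 5.96, 2.50 and 2.18 RPKM, and the groups did not overlap. GF mouse 4 was well above the other GF mice, and humanized mouse 4 was the highest of its group. The LFC was -3.12 (SE 0.30), with means of 30.3 ± 13.0 (SD, n = 5) and 3.49 ± 1.4 (SD, n = 6). Leaving out single mice moved the LFC between -3.34 and -2.83.

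Pyy, the gene of peptide YY, an L-cell peptide that slows gut transit and reduces appetite, lies at chr11:102106676-102107832. It had 73.9, 66.6, 66.5, 61.6 and 45.2 RPKM in GF mice 1 to 5, and 79.4, 54.4, 66.4, 83.0, 89.9 and 52.3 RPKM in humanized mice 1 to 6. The groups overlapped through most of their range, with means of 62.8 ± 10.8 (SD, n = 5) and 70.9 ± 15.6 (SD, n = 6). The LFC was 0.18 (SE 0.16), and it was -0.01 when libraries were scaled by their totals and -0.08 when they were scaled to epithelial genes. Of these L-cell genes, Gcg and Insl5 were called lower and Pyy was not called.

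Nts, the gene of neurotensin, at chr10:102481760-102490418, had 90.9, 105, 61.6, 120.5 and 56.3 RPKM in GF mice 1 to 5. In humanized mice 1 to 6 it had 63.3, 84.0, 68.7, 77.9, 109.8 and 68.3 RPKM. The groups overlapped, with means of 86.9 ± 27.6 (SD, n = 5) and 78.7 ± 17.0 (SD, n = 6) and an LFC of -0.14 (SE 0.20).

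Cck, which encodes cholecystokinin, the I-cell hormone that drives gallbladder emptying and pancreatic secretion, lies at chr9:121489825-121495689. It had the lowest LFC of the 10 genes, close to that of Insl5 at -3.12. The LFC of Insl5 was the lower without GF mouse 1 (-3.14 against -3.11), humanized mouse 2 (-3.18 against -3.09) or humanized mouse 4 (-3.34 against -3.30). The RPKM of Cck was 30.3, 23.1, 21.5, 36.2 and 19.6 in GF mice 1 to 5 and 4.37, 1.89, 2.68, 4.09, 2.03 and 2.36 in humanized mice 1 to 6. The groups did not overlap, and the lowest GF mouse had more than 4 times the RPKM of the highest humanized mouse. The means were 26.1 ± 6.94 (SD, n = 5) and 2.90 ± 1.07 (SD, n = 6), from 828 to 1549 reads per GF mouse and 48 to 110 per humanized mouse. The LFC was -3.17 (SE 0.25), a GF mean of 9.01 times the humanized mean. Bulk tissue does not show which cells the Cck reads came from, and the parts of I cells and of neurons in them were not tested.

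Sst, the gene of somatostatin, a peptide of D cells and of enteric neurons that restrains the release of other hormones, lies at chr16:23889581-23890844. It had 9.48, 12.8, 11.5, 11.6 and 7.71 RPKM in GF mice 1 to 5 and 3.64, 2.65, 2.89, 3.43, 1.62 and 8.30 RPKM in humanized mice 1 to 6. Humanized mouse 6 was above the lowest GF mouse, and the other 5 humanized mice were below every GF mouse. The LFC was -1.50 (SE 0.33), and -1.91 without humanized mouse 6.

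**Figure D2:**
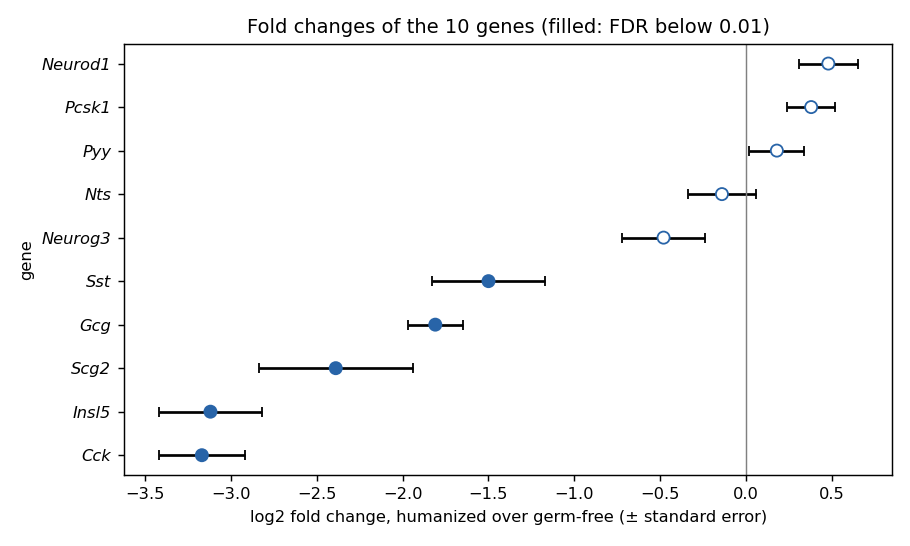
LFC of humanized over GF mice (horizontal axis, log2) with bars of 1 SE for each of the 10 genes, filled where the FDR was below 0.01. Cck, Insl5, Scg2, Gcg and Sst are filled and lie below 0, from -3.17 to -1.50, and the other 5 lie between -0.48 and 0.48.

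The next 2 genes serve prohormone processing and granule formation. Scg2 at chr1:79434669-79440120, whose product secretogranin II is a granin of endocrine cells and neurons, had 2.99, 1.72, 2.18, 2.60 and 2.92 RPKM in GF mice 1 to 5. In humanized mice 1 to 6 it had 0.509, 0.268, 0.453, 0.746, 0.0502 and 0.817 RPKM. The groups did not overlap, the LFC was -2.39 (SE 0.45), and humanized mouse 5 had 6 reads where the other humanized mice had up to 103. The LFC was -2.15 without humanized mouse 5 and -2.63 without humanized mouse 6.

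Pcsk1 at chr13:75089826-75132498 encodes prohormone convertase 1/3, which cuts proglucagon to GLP-1 in L cells. It had 7.22, 6.83, 5.85, 5.09 and 5.18 RPKM in GF mice 1 to 5 and 9.22, 9.18, 7.86, 8.54, 6.77 and 5.52 RPKM in humanized mice 1 to 6. The 2 lowest humanized mice were within the GF range and the other 4 were above it. The LFC was 0.38 (SE 0.14). Pcsk1 was called higher, with an LFC of 0.46, when humanized mouse 6 was left out. It was also called higher, with an LFC of 0.52, when humanized mice 5 and 6 were both left out. That choice was made after seeing the data and removes the 2 lowest humanized values, so a higher LFC follows from it. Under scaling by library totals and by epithelial genes the LFC of Pcsk1 was 0.19 and 0.15.

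The lineage factors were low in every mouse. Neurog3 at chr10:62133090-62134763 had 0.783, 1.25, 0.888, 0.946 and 1.22 RPKM in GF mice 1 to 5 and 0.690, 0.507, 0.616, 1.08, 0.478 and 0.985 RPKM in humanized mice 1 to 6. The groups overlapped, with 76 to 131 reads per GF mouse and 29 to 76 per humanized mouse, and the LFC was -0.48 (SE 0.24). In the GENCODE M21 annotation of the same build, 273 bases of its exons are also exons of the antisense gene 2010107G23Rik (Fam241b in that release), which had an LFC of -0.09 and an FDR of 0.661. The strand setting of the counting is not given in the sources used here, so reads in those bases cannot be assigned.

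Neurod1 at chr2:79452521-79456751 had 1.53, 1.13, 1.10, 1.70 and 1.15 RPKM in GF mice 1 to 5. It had 2.11, 1.85, 2.27, 1.86, 1.66 and 1.38 RPKM in humanized mice 1 to 6. The upper 4 humanized mice were above every GF mouse and the groups overlapped below that, with an LFC of 0.48 (SE 0.17). It was called higher, with an LFC of 0.61, when humanized mice 5 and 6 were both left out. These mice, left out after the data were seen, were the lowest of their group in Neurod1, so a higher LFC follows from the choice. Neurod1 shares 355 exon bases with Cerkl on its own strand and with a gene on the other strand, and Cerkl had an LFC of 0.07 and an FDR of 0.9. The exons of the other 8 genes are shared with no other gene of that annotation. Cerkl and 2010107G23Rik were named after their values were seen.

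The order of the mean RPKM values in GF mice was Gcg, Nts, Pyy, Insl5, Cck, Sst, Pcsk1, Scg2, Neurod1 and Neurog3. In humanized mice it was Nts, Pyy, Gcg, Pcsk1, Sst, Insl5, Cck, Neurod1, Neurog3 and Scg2. Neighbours whose ranges over mice overlapped in GF mice were Nts with Pyy, Pyy with Insl5, Insl5 with Cck, and Neurod1 with Neurog3. In humanized mice the ranges overlapped for Nts with Pyy, Pyy with Gcg, Pcsk1 with Sst, Sst with Insl5, Insl5 with Cck, Cck with Neurod1 and Neurog3 with Scg2. The coefficient of variation over mice had a median over the 10 genes of 21.0% in GF and 28.4% in humanized mice, and it was highest for Sst in humanized mice at 62.2%.

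Ratios of 2 genes within a mouse do not depend on how libraries were scaled. Gcg over Pyy was 2.48, 2.66, 1.91, 3.59 and 2.74 in GF mice 1 to 5 and 0.660, 0.839, 0.671, 0.668, 0.403 and 0.985 in humanized mice 1 to 6. Gcg was thus above Pyy in every GF mouse and below it in every humanized mouse. Insl5 over Pyy ranged from 0.325 to 0.853 in GF and from 0.0278 to 0.0766 in humanized mice, and Cck over Pyy from 0.324 to 0.587 and from 0.0226 to 0.0551. Neither ratio overlapped between the groups, while Nts over Pyy did, at 0.927 to 1.95 and 0.797 to 1.54.

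**Figure D3:**
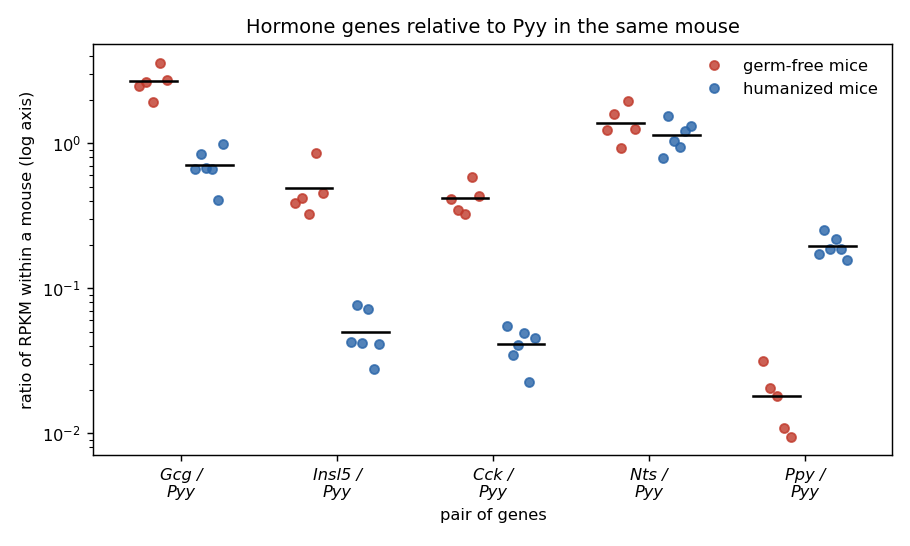
RPKM of Gcg, Insl5, Cck, Nts and Ppy divided by that of Pyy in the same mouse (log axis), with 1 point per mouse and a bar at the group mean. The ratios of Gcg, Insl5 and Cck are lower in all 6 humanized mice than in all 5 GF mice, that of Ppy is higher in all 6, and that of Nts overlaps.

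Relative to Gcg, the genes that fell furthest were also apart. Insl5 over Gcg was 0.178 ± 0.0338 (SD, n = 5) in GF and 0.0728 ± 0.0231 (SD, n = 6) in humanized mice, with ranges of 0.157 to 0.237 and 0.0423 to 0.108. Cck over Gcg was 0.157 ± 0.0155 (SD, n = 5) and 0.0601 ± 0.0162 (SD, n = 6), also without overlap. The RPKM of Insl5 and Cck was therefore lower in humanized mice by a larger factor than that of Gcg.

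The rest of the enteroendocrine system was read from 7 lists of 92 genes, of which 79 passed the filter, 9 were called higher and 15 lower, where 9.20% and 10.1% of all tested genes were. The counts of the single lists below are to be read against the same shares. In those counts, rose and fell mean called higher and called lower. Of 5 tested genes of other gut hormones, 2 rose and none fell. Ppy, which encodes pancreatic polypeptide and lies 5356 bases from Pyy on chromosome 11, had 1.20 ± 0.733 RPKM (SD, n = 5) in GF and 13.8 ± 3.49 (SD, n = 6) in humanized mice, an LFC of 3.53 (SE 0.38, FDR 9.50e-16). Every humanized mouse was above every GF mouse, and Ppy over Pyy was 0.0181 ± 0.00876 (SD, n = 5) and 0.196 ± 0.0344 (SD, n = 6). The other that rose was Sct, the secretin gene, from 27.3 ± 3.44 (SD, n = 5) to 50.8 ± 19.1 (SD, n = 6) RPKM (LFC 0.90, FDR 7.08e-04). Gast, the gastrin gene, had 0 reads in every mouse, and Gip and Ucn3 did not pass the filter. Tac1, chosen after its values were seen, did not pass the threshold (LFC 0.74, FDR 0.0103), and was called higher without GF mouse 2 (LFC 0.98) or without humanized mouse 5 (LFC 0.80). It was also called higher by the DESeq2 Wald test (FDR 0.00351) and by the exact test with at least 10 counts in every mouse (FDR 0.00971).

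Of 12 tested granule and processing genes, 5 fell and 2 rose, with a median LFC of -0.45. Those that rose were the granins Chgb, from 65.5 ± 6.72 (SD, n = 5) to 106 ± 19.6 (SD, n = 6) RPKM (LFC 0.70, FDR 1.73e-06), and Chga, from 39.7 ± 5.36 (SD, n = 5) to 68.8 ± 21.0 (SD, n = 6) RPKM (LFC 0.79, FDR 2.75e-04). Under scaling to epithelial genes their LFC was 0.46 and 0.54 and neither passed the threshold. Those that fell were Scg3, encoding secretogranin III (LFC -1.21, FDR 3.51e-07), Cpe, encoding the carboxypeptidase that trims cut prohormones (LFC -1.06, FDR 7.34e-07), Pam, encoding the enzyme that amidates peptides (LFC -0.78, FDR 1.98e-07), and, chosen after their values were seen, Vgf (LFC -0.96, FDR 0.00320) and Pcsk2 (LFC -2.63, FDR 1.22e-06). Vgf was not called by the quasi-likelihood test (FDR 0.0157) or without GF mouse 1, 2 or 4. Pcsk2 had 34 to 101 reads per GF mouse and 0 to 18 per humanized mouse. Neurons also express these 5 genes, and 11 of 14 enteric neuron markers were called lower, with a median LFC of -1.63. The part of neurons in these values was not tested. Gcg over Chgb was 2.53 ± 0.534 (SD, n = 5) in GF and 0.458 ± 0.0973 (SD, n = 6) in humanized mice, while Pyy over Chgb overlapped between the groups.

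Of 18 lineage factors, 1 was called, Runx1t1, which fell (LFC -0.96, FDR 1.44e-05). Atoh1, the secretory lineage factor, had 47.9 and 45.2 mean RPKM in GF and humanized mice (LFC -0.08, FDR 0.588), and Foxa1 had 28.4 and 30.2 (LFC 0.09, FDR 0.467). Insm1, which follows Neurog3 in endocrine differentiation, had an LFC of 0.19 (SE 0.15, FDR 0.486), and Pax4 an LFC of -0.64 (SE 0.34, FDR 0.192), both chosen after their values were seen. The median LFC of the list was -0.01, and 2 factors were called lower when humanized mouse 1, 3 or 4 was left out and 3 with scaling by library totals.

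Of 7 enterochromaffin genes, which serve serotonin production, 3 rose and 1 fell. Tph1, the rate-limiting enzyme of gut serotonin synthesis, went from 6.23 ± 0.831 (SD, n = 5) to 11.5 ± 2.65 (SD, n = 6) RPKM (LFC 0.89, FDR 7.92e-06), with Ddc (LFC 0.56, FDR 1.03e-07) and Gch1 (LFC 1.11, FDR 1.11e-09) also higher. With scaling to epithelial genes Tph1 and Ddc missed the threshold, at LFC 0.66 and 0.32. The gene that fell was Piezo2, a mechanosensitive channel (LFC -1.80, FDR 1.38e-05), chosen after its values were seen and also expressed by neurons.

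Of 13 tested genes that let enteroendocrine cells sense the lumen, 2 fell and none rose. Trpa1, an irritant-gated channel, fell from 1.47 ± 0.204 (SD, n = 5) to 0.388 ± 0.153 (SD, n = 6) RPKM (LFC -1.93, FDR 2.64e-08). Gpbar1, a bile acid receptor that acts on L cells, was called lower at 3 to 16 reads per humanized mouse (LFC -1.50, FDR 0.00905), and the call was lost when any of 9 of the 11 mice was left out, when humanized mice 5 and 6 were both left out, and by the quasi-likelihood test. Slc5a1 and Ffar4, a glucose transporter and a fatty acid receptor, were not called (FDR 0.329 and 0.0599), but with scaling by library totals or by epithelial genes both were called lower, for 4 genes of the list in all. Ffar4 was also called lower without humanized mouse 5 (LFC -0.42, FDR 0.00796). The receptors of short-chain fatty acids did not pass the threshold, Ffar2 at LFC 0.05 (FDR 0.875) and Ffar3 at LFC 1.11 (FDR 0.0291), and neither did Ffar1, at LFC 0.91 (FDR 0.0178). These 3 genes were chosen after their values were seen.

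Of 12 tested hormone receptors, 3 fell and none rose, with a median LFC of -0.64. The count called lower ranged from 2 to 5 when single mice were left out, being 5 without humanized mouse 4, and was 5 without humanized mice 5 and 6, and 1 receptor was called higher without humanized mouse 6. The somatostatin receptors Sstr1 (LFC -1.66, FDR 1.00e-10) and Sstr2 (LFC -1.26, FDR 3.49e-05) fell with no overlap between the groups. Glp2r, the GLP-2 receptor, fell from 2.63 ± 0.423 (SD, n = 5) to 1.04 ± 0.466 (SD, n = 6) RPKM (LFC -1.34, FDR 0.00278), and was not called by the quasi-likelihood test or when any of 4 mice was left out. Markers of enteric neurons and of smooth muscle also fell, with median LFC of -1.63 and -1.79. The part of such cells in the values of the sensing, receptor and peptidase lists was not tested. Of the receptors of the 2 hormones that fell furthest, Cckar (LFC -1.72, SE 0.63, FDR 0.0312) and Rxfp4 (LFC 0.60, SE 0.45, FDR 0.370) did not pass the threshold. Both were chosen after their values were seen. Cckar was called lower without GF mouse 2 (LFC -1.99) or without humanized mouse 4 (LFC -2.21). Cckbr, also of the list, did not pass the filter.

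Of 12 peptidases that cut gut peptides, 3 fell and 2 rose. Without humanized mouse 6, and without humanized mice 5 and 6, 6 were called lower. Dpp4, which inactivates GLP-1, fell from 16.3 ± 2.32 (SD, n = 5) to 8.95 ± 2.44 (SD, n = 6) RPKM (LFC -0.87, FDR 5.77e-06), with Fap (LFC -0.76, FDR 5.24e-04) and Mep1a (LFC -0.64, FDR 0.00113). Mep1b rose (LFC 0.57, FDR 0.00145), as did Prep (LFC 0.30, FDR 0.00200), chosen after its values were seen. Both rises missed the threshold with scaling by library totals or by epithelial genes, Prep also without GF mouse 1, without GF mouse 3 or without humanized mice 5 and 6. Mep1a and Mep1b were not called by the quasi-likelihood test (FDR 0.0126 for both).

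**Figure D4:**
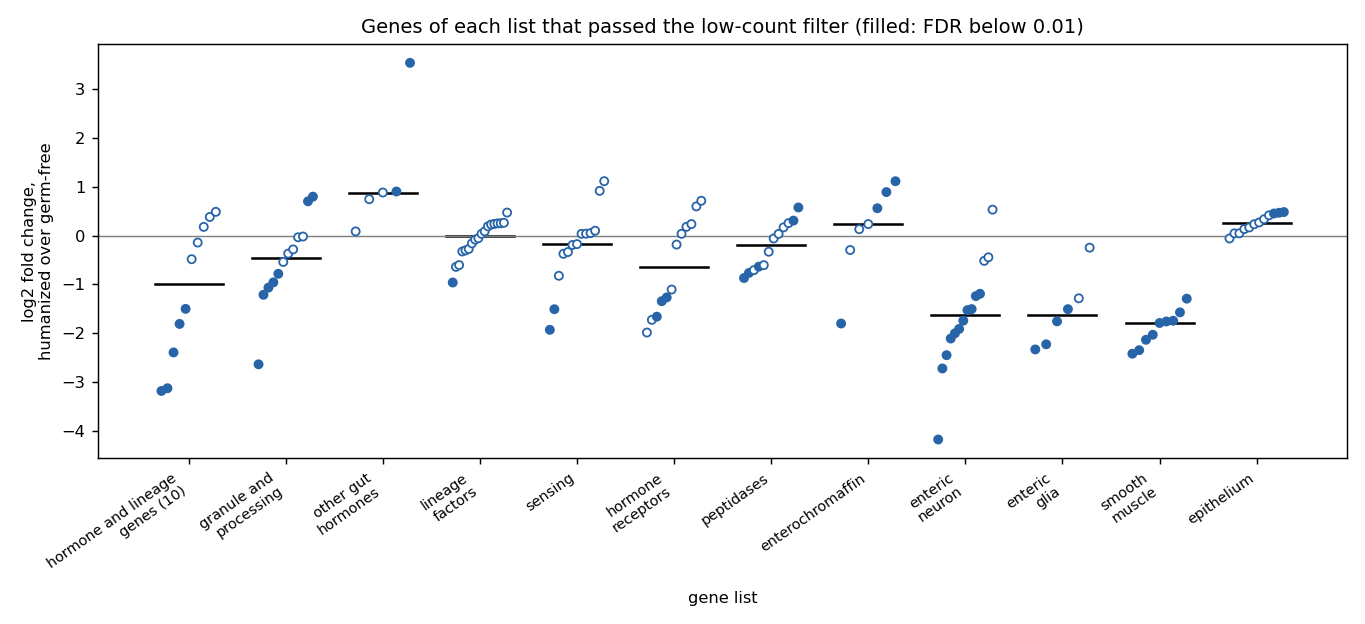
LFC of humanized over GF mice (vertical axis, log2) for each tested gene of the 10 described genes, the 7 enteroendocrine lists and 4 lists of other cell types, filled where the FDR was below 0.01, with a bar at each median. The medians of the neuron, glia and smooth muscle lists lie at -1.63, -1.63 and -1.79, and that of the epithelial list at 0.25.

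Markers of other cells of the tissue also differed between the groups. Enteric neuron markers were called lower in 11 of 14, with none called higher, and their summed RPKM was 24.1 to 53.2 in GF and 2.63 to 13.9 in humanized mice. The quasi-likelihood test called 7 of them lower. Gal, a neuropeptide gene, fell from 11.5 ± 4.35 (SD, n = 5) to 0.644 ± 0.513 (SD, n = 6) RPKM (LFC -4.17, FDR 1.94e-11), Elavl4 had an LFC of -2.44 (FDR 1.01e-09) and Uchl1 an LFC of -2.0 (FDR 2.52e-09). Of 6 tested enteric glia markers, 4 were called lower, with a summed RPKM of 18.7 to 21.7 and 12.0 to 17.3. All 9 smooth muscle markers were called lower, with sums of 280.1 to 857 in GF mice and 38.0 to 120 in humanized mice 1 to 5, while humanized mouse 6 had 298. Without GF mouse 4, whose sum was 857, and by the quasi-likelihood test, 5 of the 9 were called lower. Epithelial markers were called higher in 3 of 12 and called lower in none, with overlapping sums of 4769.8 to 6468 and 5390.4 to 7682.

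The sum of the neuron markers was lower in humanized mice, as were the means of Sst and Scg2, which enteric neurons also express. Not every neuron marker was lower: the highest LFC of the 14 was 0.53, which was not called. The neuron sums were 46.0, 24.1, 41.7, 40.0 and 53.2 in GF mice 1 to 5 and 13.9, 7.80, 12.4, 13.7, 2.63 and 8.92 in humanized mice 1 to 6. GF mouse 2, with the lowest sum, had the highest Sst and the lowest Scg2 of the GF mice, and GF mouse 5, with the highest sum, had the lowest Sst. Humanized mice 1 to 5 had the same order in Sst as in the neuron sum, and humanized mouse 6 departed from it. The sum is led by its most abundant genes. Vip and Gal had GF means of 17.6 and 11.5 RPKM, against 3.51 for Uchl1 and 0.255 for Elavl4. The order of mice in the sum thus need not be that of every neuron marker. Scg2 over the pan-neuronal gene Uchl1 was 0.488 to 0.970 in GF and 0.143 to 0.770 in humanized mice, and Sst over Uchl1 was 2.17 to 3.63 and 2.46 to 7.81, so both ratios overlapped between the groups. Humanized mouse 6, the highest of its group in Sst and Scg2, was also its highest in smooth muscle markers but not in neuron markers, and humanized mouse 5, with 6 reads of Scg2, was its lowest in neuron markers at 2.63. The part of the neuron and muscle markers in the Sst and Scg2 values was not tested. Vip, another neuron gene, fell (LFC -1.74, FDR 0.00257), but was not called by the quasi-likelihood test (FDR 0.0182) or without GF mouse 1, GF mouse 5 or humanized mouse 2.

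**Figure D5:**
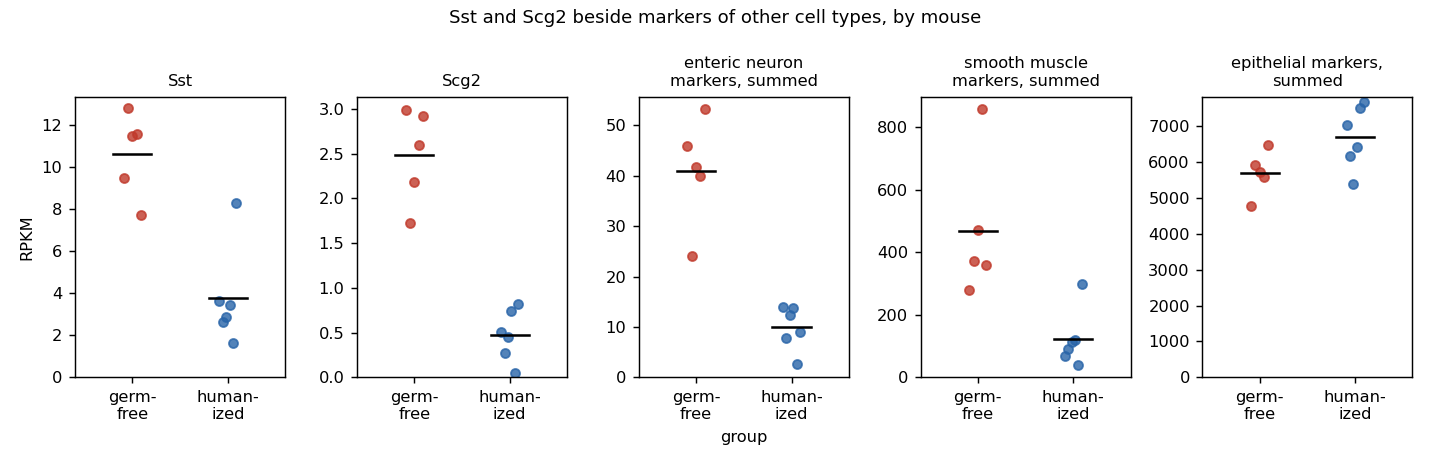
RPKM of Sst and Scg2 and summed RPKM of enteric neuron, smooth muscle and epithelial markers (linear axes from 0) in each GF and humanized mouse, with a bar at the group mean. Scg2 and the neuron sum do not overlap between groups, humanized mouse 6 is highest of its group in Sst at 8.30 and in the muscle sum at 298, and the epithelial sum overlaps.

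The tissue label was checked against defining genes. The pancreatic genes Ins1, Ins2, Cpa1 and Pnlip had 0 reads in every mouse, and Krt8, of the epithelium, had mean RPKM of 1455 and 1751 in GF and humanized mice. Of the posterior Hox genes that mark the hindgut, Hoxa13 passed the filter, at 0.548 ± 0.246 RPKM (SD, n = 5) and 0.178 ± 0.158 (SD, n = 6), and 3 others did not. Fabp2 and Slc10a2, genes typical of the small intestine, had mean RPKM of 498 and 207 in GF mice and 599.8 and 130.3 in humanized mice. Of 7 tested genes of the small intestine list 2 were called lower and none higher, while the median LFC of the list was 0.40. The summed RPKM was 566 to 926 in GF and 614 to 1232 in humanized mice, and humanized mouse 6 was the highest. Those called lower were Slc10a2 (FDR 7.08e-04) and Sis (FDR 0.00873), and the quasi-likelihood test called neither (FDR 0.0104 and 0.0335). Sis also lost its call when any of 9 of the 11 mice was left out. The 1 tested gene of the pancreas list, Cela1, was called higher (LFC 0.44, FDR 0.00200), but not without GF mouse 4, without humanized mice 5 and 6, by the quasi-likelihood test, or with scaling by library totals (LFC 0.26) or by epithelial genes (LFC 0.22). The segment of colon taken is not given in the sources used here, and the part of tissue position in the hormone values was not tested.

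Within the groups, the 10 genes were compared by the correlation of their log2 levels after each group's mean was removed, over 11 mice. Of 45 pairs, none passed a Benjamini-Hochberg adjusted permutation p of 0.05 by Pearson's r or Spearman's rho, 5 had an unadjusted p below 0.05 by r, and the median r was 0.29. With scaling to epithelial genes 11 pairs had an unadjusted p below 0.05 by r, the median r was 0.52, and 1 pair, Cck and Gcg, passed by rho (0.85, permutation p = 0.00038, adjusted 0.0171) but not by r (0.82, permutation p = 0.00176, adjusted 0.0781). Without that scaling Cck and Gcg had the highest r, 0.75 (rho 0.78, two-sided permutation p = 0.00842 and 0.00453, adjusted 0.309 and 0.204), with r 0.77 without the 2 mice farthest from the median of Cck and 0.68 to 0.80 when single mice were left out. Insl5 and Gcg had r 0.72 (rho 0.72, permutation p = 0.0158 and 0.0232, adjusted 0.309 and 0.348), and 0.48 without the 2 mice farthest from the median of Insl5. Gcg and Pyy, both L-cell genes, had r 0.14 (rho 0.29, permutation p = 0.672 and 0.391).

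Among 16039 genes with a mean of at least 1 CPM, those whose within-group pattern over the 11 mice was most like that of a hormone gene were ranked by r. For Gcg they were Ago1, Scg3 and 2610305D13Rik (r 0.91, 0.83 and 0.82), for Pyy C1qtnf4, Rundc3a and Tbc1d9b (0.93, 0.93 and 0.92), and for Insl5 Cd59a, Ago1 and Dtwd1 (0.93, 0.89 and 0.87). For Cck they were Baat, Gm5611 and Agap1 (0.91, 0.87 and 0.87), for Nts Trove2, Mest and Zcrb1 (0.92, 0.91 and 0.88), and for Sst Zfp595, Gm20392 and Rgs2 (0.93, 0.90 and 0.90). Each is the best of 16039 over 11 mice that share libraries and depth, and the values are a description. Ago1 was in the 3 of both Gcg and Insl5.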

How the data were processed

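Colon RNA of 5 germ-free and 6 humanized mice was sequenced with 101 bp paired-end reads. Per the labels and the submitters' processing notes, bcl2fastq 2.17.1.14, TopHat2 2.1.0, Bowtie2 2.2.3 and featureCounts of Subread 1.4.6-p5 were used with mm10, and the authors deposited raw counts per gene with gene positions and a coding length whose definition is not given in the sources used here. The annotation release and strand setting are likewise not given.

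The comparison was run with edgeR 4.0.16 (R 4.3.3) by the pipeline that the study's methods name: the default filterByExpr (a count of at least 10 in enough mice and a sum of at least 15), TMM, estimateDisp, the exact test and Benjamini-Hochberg correction over all 19863 tested genes, at FDR below 0.01. SE values are from the quasi-likelihood fit. RPKM used TMM-normalized libraries and the deposited length. For co-variation, CPM (counts scaled by TMM library size) were put on the log2 scale after a prior count of 2 was added, with 100000 shuffles of mice within groups. DESeq2 1.42.0 was an alternative. On simulated counts for this comparison (19540 genes), the exact test recovered 79 of 100 genes changed 2-fold and 99 of 100 changed 4-fold, with 9 false calls.

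The 10 genes and the lists were chosen with earlier results of these data known. Besides the 10, from each list the 3 called genes of lowest FDR and the 2 most abundant were eligible to be named, with the 3 genes most like each hormone gene, and other names are said to be chosen after seeing values. Libraries of a group differed beyond counting noise (mean chi-square per gene 21.2 to 132), so none was counted as a duplicate. The labels give each mouse its own number. That the mice are separate animals follows from the sample sizes in the labels, and p-values measure the spread between these mice.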

Additional observations from a re-analysis of the deposited data

Results flagged for a closer look

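Of 72 groups of 5 or 6 values checked, 6 held a mouse whose gap to the nearest other mouse was large against the range of its group, where chance gives about 1 in 20. GF mouse 4 had an Insl5 RPKM of 52.6, with the next GF mouse at 28.7, and the same mouse had the highest Insl5 over Pyy, 0.853 against 0.454, and Insl5 over Gcg, 0.237 against 0.170. These 3 values share the Insl5 count of 1 mouse. GF mouse 2 had the lowest Cck over Gcg of its group, 0.131 against 0.158. Humanized mouse 6 had an Sst RPKM of 8.30, with the next humanized mouse at 3.64, and a summed RPKM of smooth muscle markers of 298, with the next at 120. Without humanized mouse 6 the LFC of Sst was -1.91 in place of -1.50, and without GF mouse 4 that of Insl5 was -2.83 in place of -3.12.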

How the results depend on the processing

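Of the 10 genes, the same count of 5 was called lower in every alternative but 2, a minimum of 10 counts in every mouse and a block on the replicate number, which gave 4. Scg2 was not tested under the first and missed the threshold under the second, at an LFC of -2.81. The count called higher was 0, and 1 at FDR below 0.05, 0 to 1 when single mice were left out, and 2 without humanized mice 5 and 6, an alternative chosen after seeing the data. The replicate numbers did not pair the mice (r of same-numbered mice -0.06, -0.13, 0.09, 0.09 and -0.07). The replicate block needs the quasi-likelihood test and is set beside that test without a block. With the block, 1012 genes were called in place of 2699, with 6 of the enteroendocrine list genes lower in place of 11, and 16 of the marker genes of other cells lower in place of 16 and 0 higher in place of 3. The exact test had called 3826 genes, 15 list genes lower, and 26 markers lower and 4 higher. Enteroendocrine list genes called higher were 3 in place of 9 with scaling to epithelial genes. With single mice left out they were 8 to 10, and those lower 13 to 18. Marker genes called lower were 16 by the quasi-likelihood test, 17 with at least 10 counts in every mouse and 19 to 27 with single mice left out. Those called higher were 2 under library totals, 0 under epithelial scaling and 3 to 5 with single mice left out. These alternatives for the markers were added after seeing the data. The quasi-likelihood test called 2699 genes and DESeq2 4367. Library totals and epithelial scaling moved the median LFC of all genes by -0.18 and -0.23. Under them the sign turned, in this order, for Pyy (-0.01, -0.08), Foxa1 (-0.10, -0.14), Sort1 (-0.02, -0.07), Ffar2 (-0.13, -0.16) and Cerkl (-0.09, -0.11), and for Insm1 under epithelial scaling alone (-0.06). With single mice left out, Ffar2 (LFC from -0.04 to 0.13) and Cerkl (from -0.11 to 0.20) took either sign. None of these genes was called. Calls of Vgf, Vip, Prep and Cela1 were lost when any of 3, 3, 2 and 1 mice was left out. Tac1 became called without GF mouse 2 or humanized mouse 5, Ffar1 without humanized mouse 1, Ffar3 without GF mouse 4, Ffar4 without humanized mouse 5, Cckar without GF mouse 2 or humanized mouse 4, and Hoxa13 without mouse 2 of either group. Of 697 values of LFC under the other settings, 623 kept their direction and side of the threshold, and of 780 with single mice left out, 733 did. No pair of genes passed by r in any co-variation setting, and by rho 1 pair, Cck and Gcg, passed with scaling to epithelial genes (adjusted permutation p = 0.0171). The causes were not tested. Low counts limit Cck, Insl5, Sst, Scg2, Neurog3 and Gpbar1, which had as few as 48, 79, 46, 6, 29 and 3 reads in a humanized mouse. They also limit other named genes, among them Pcsk2 and Foxd3, with as few as 0 reads in a humanized mouse. The lowest humanized mouse had 2 reads of Gal, Sox10, Rxfp4 and Hoxa13, 4 of Elavl4 and Cckar, and 12 of Vgf.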
